A study of Homo sapiens with 72 samples.

Results

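The mRNA of DU145 cells that lack full-length TUT4 and TUT7 was compared with and without overexpressed LIN28A. The comparison used 16 of the 72 samples of the series, namely 8 mRNA libraries of LIN28A-overexpressing (LIN28A-OE) TUT4/7 mutants and 8 libraries of the parental mutants, set against each other within clone number. DU145 is a prostate cancer cell line, and the study asked what the loss of both enzymes does to miRNAs and mRNAs in cancer cells. All 16 libraries carried Cas9 nickase lesions in both genes, upstream of the exon that encodes the catalytic domain. Mutant 1 and mutant 2 were independent double mutants, with 4 libraries each of the parental and the LIN28A-OE line. Mutant 1 is labelled as 1 clone, whereas the clone name of mutant 2 ends in another digit for each of the 4 replicates, the same digit at the same replicate number in both arms. The LIN28A-OE lines were made with a lentivirus in which a CMV promoter drives a LIN28A cDNA without introns or 3′UTR, followed by puromycin selection. Replicates were successive passages, labelled passages 1 to 4 for every LIN28A-OE line, 9 to 12 for parental mutant 1 and 8 to 11 for parental mutant 2, so the p-values measure the spread between passages of a line and not between independently made lines. No empty-vector line is named for these groups, and LIN28A, transduction, puromycin and passage therefore cannot be told apart.

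LIN28A is an RNA-binding protein of embryonic stem cells that binds the terminal loop of let-7 precursors and also binds many mRNAs. On a let-7 precursor it recruits the uridyl transferases TUT4 and TUT7, whose oligouridine tail blocks cleavage by DICER1 and marks the precursor for decay. Mature let-7 represses mRNAs whose 3′UTR pairs with its seed, among them growth regulators such as HMGA2, IGF2BP1 and IGF1R, and the family is low in embryonic and many tumour cells.

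The mature let-7 and miR-98 sequences are shown because the seed defines the site that was searched in the 3′UTRs of the genes tested. In RefSeq (GRCh38.p14) all 9 mature 5p members that were matched hold the same seed, bases 2 to 8, which is in capitals.
let-7a-5p: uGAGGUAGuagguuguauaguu
let-7e-5p: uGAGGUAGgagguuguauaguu
let-7f-5p: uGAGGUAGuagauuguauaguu
let-7i-5p: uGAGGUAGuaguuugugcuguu
miR-98-5p: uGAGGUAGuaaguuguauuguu

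The matching 8-base site is CTACCTCA, the complement of the seed followed by A, and it was searched on the sense strand of each gene's canonical 3′UTR (GENCODE, hg38). It was present in 4.37% of the 12365 tested genes with a 3′UTR of 50 bases or more. For 4 let-7 targets described below, 1 site each is given as a 22-base window of the 3′UTR in the sense of the mRNA, with the match in capitals. IGF2BP1 has 3 such sites, of which the one nearest the stop codon is shown.
HMGA2, chr12:65963306-65963327, plus strand: tcgatttCTACCTCAgcagcag
IGF2BP1, chr17:49051069-49051090, plus strand: aagtaaaCTACCTCAaggtatg
IGF1R, chr15:98960054-98960075, plus strand: catttatCTACCTCActcttat
PRTG, chr15:55619586-55619607, minus strand: tgactatCTACCTCAgtttgcc

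LIN28A separated the arms without overlap. Levels are given in CPM, each gene's count relative to its library's total count after TMM scaling. The 8 parental mutant libraries held 0 to 3 reads of LIN28A each, at most 0.302 CPM. The LIN28A-OE libraries of mutant 1 stood at 418, 330, 396 and 382 CPM (382 ± 37.3, SD, n = 4), and those of mutant 2 at 211, 301, 222 and 237 CPM (243 ± 40.2, SD, n = 4). Every LIN28A-OE library was therefore far above every parental library. Against the summed parental reads, 5 in mutant 1 and 6 in mutant 2, LIN28A was 2964 times as high in mutant 1 (95% exact interval for counting error 1270 to 9128) and 1709 times as high in mutant 2 (785 to 4658). The same construct gave 74.2, 70.9, 76.8 and 65.5 CPM in DU145 wild type (71.8 ± 4.87, SD, n = 4), so that LIN28A was 5.31-fold higher in the LIN28A-OE libraries of mutant 1 and 3.38-fold higher in those of mutant 2 than in those of wild type, and 1.57-fold higher in mutant 1 than in mutant 2 (exact two-sided permutation test, p = 0.0286 for each of the 3 pairs and after adjustment, the smallest p that 4 against 4 allows). LIN28B, the close relative of LIN28A, had at most 1 read in any of the 16 libraries and was not tested.

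Transcripts of the mutated genes were still counted, and counts over a whole gene do not show the lesions. TUT4, listed under its older symbol ZCCHC11, stood at 15.8, 13.5, 15.2 and 5.56 CPM in parental mutant 1 and at 16.4, 17.8, 23.9 and 21.4 CPM in its LIN28A-OE line. In mutant 2 it stood at 42.5, 45.8, 42.5 and 27.1 CPM in the parental and at 55.1, 55.1, 59.7 and 55.9 CPM in the LIN28A-OE libraries. The groups did not overlap in either clone, and replicate 4 of each parental mutant was the lowest library. The log2 fold changes of TUT4, 0.64 in mutant 1 (SE 0.23, edgeR adjusted p = 0.0633) and 0.51 in mutant 2 (SE 0.21, adjusted p = 0.0578), missed the threshold of 0.01. TUT7, listed as ZCCHC6, had log2 fold changes of 0.64 in mutant 1 (SE 0.22, adjusted p = 0.0594) and 0.56 in mutant 2 (SE 0.22, adjusted p = 0.0454), also short of the threshold.

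**Figure D1:**
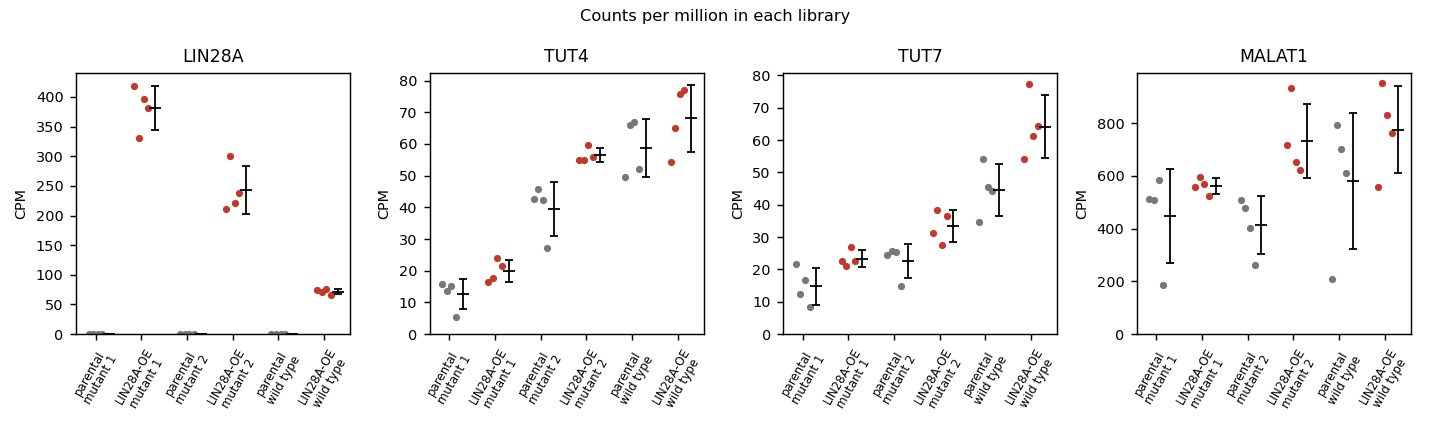
Levels of LIN28A, TUT4, TUT7 and the nuclear RNA MALAT1 (CPM, y axis) in the parental and LIN28A-OE libraries of mutant 1, mutant 2 and wild type (x axis); points are libraries and bars are means ± SD (n = 4). LIN28A is near 0 in all parental libraries and highest in LIN28A-OE mutant 1, and replicate 4 of parental mutants 1 and 2 has the lowest MALAT1 of its group (187 and 261 CPM).

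The LIN28A-OE mutant libraries held 9892140 to 19402406 gene counts and the parental mutants 7195437 to 12565155. Of 26485 genes in the files, 14486 passed the filter on low counts. Replicate 4 of both parental mutants stood apart in the nuclear RNA MALAT1, at 187 and 261 CPM against 403 to 585 CPM in the other 6 parental mutant libraries. They were also the lowest of their own groups in the nuclear RNA NEAT1, at 96.8 and 64.1 CPM, but the other 6 ranged from 95.4 to 258 CPM. LIN28A-OE mutant 2 had the highest MALAT1, between 621 and 934 CPM, so this measure moved with the comparison in mutant 2. NEAT1 also separated the arms of mutant 2, at 64.1 to 156 CPM in the parental and 177 to 295 CPM in the LIN28A-OE libraries, as did the share of counts assigned to no gene, at 8.21% to 10.0% and 11.1% to 12.3%. The part of these measures in the results was not tested. The 4 epithelial markers were all measured and summed to 1427 to 2856 CPM in the 16 libraries, whereas of 6 prostate luminal markers 1 passed the filter and KLK3, KLK2, FOLH1 and TMPRSS2 were among those that did not. PTPRC, CD3E and HBB, which mark blood cells, and DCN and LUM, which mark fibroblasts, did not pass it either. The list of ovarian markers, taken for IGROV1, the ovarian cancer line of the series, summed to 19.4 to 53.7 CPM in parental mutant 2 and to 118 to 163 CPM in its LIN28A-OE line, and to 5.04 to 7.05 CPM and 6.35 to 8.38 CPM in mutant 1. In mutant 2 MUC16 made up the rise (log2 1.99), while PAX8 and MEIS1 had -0.79 and -0.58 and WT1 did not pass the filter. The 1 blood cell marker tested stood at 1.06 to 1.84 CPM in parental mutant 2 and 2.28 to 3.56 CPM with LIN28A, without a call. The part of other cell types in the results was not tested.

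Across all genes, the LIN28A-OE line of mutant 2 departed further from its parent than that of mutant 1. At an adjusted p under 0.01 (edgeR quasi-likelihood test, Benjamini-Hochberg over 14486 genes), 742 genes changed in mutant 1 (5.12%), of which 397 rose and 345 fell, and 4252 changed in mutant 2 (29.4%), of which 2098 rose and 2154 fell. The direct test of the difference between the clones called 255 genes (1.76%), and 199 of the 3796 genes called in mutant 2 alone were among them. That count was 452 without replicate 3 and 168 without replicate 2 of LIN28A-OE mutant 1, 165 and 156 without replicates 2 and 3 of parental mutant 1, 97 up and 62 down without replicate 1 of parental mutant 2, and 165 and 148 without replicates 3 and 4 of LIN28A-OE mutant 2. Of the 4252 genes called in mutant 2, 3752 had the same sign in mutant 1. Over all 14486 genes tested, 5680 were higher and 5053 were lower in both clones. The count in mutant 1 fell to 280 without replicate 2 of parental mutant 1, to 375 without replicate 3 of LIN28A-OE mutant 1 and to 300 without replicate 4 of that line.

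Both clones moved 442 genes the same way (3.05%), 232 upward (1.6%) and 210 downward (1.45%), and 14 in opposite ways. Of these, 65 rose and 37 fell by 2-fold or more in both clones. This count fell to 173 without replicate 2 and to 282 without replicate 4 of parental mutant 1, to 221 without replicate 3 and to 185 without replicate 4 of LIN28A-OE mutant 1, and it was 393 without the low-MALAT1 parental libraries. In the corresponding wild-type comparison, 422 of the 442 genes had the same sign and 169 were called with that sign, while 3 were called with the opposite sign. Of all genes, 10.2% were called in wild type, and the share of all genes with the same sign there was not counted.

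**Figure D2:**
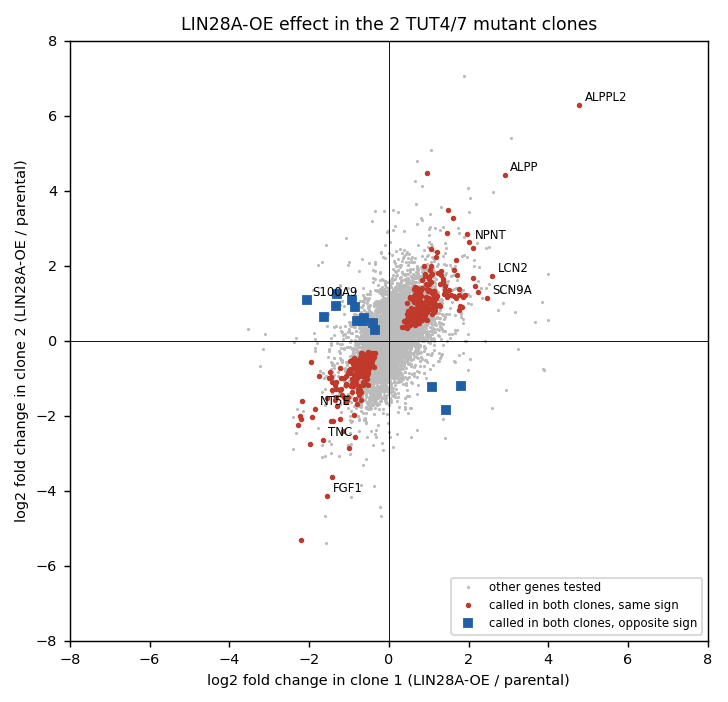
Log2 fold change of LIN28A-OE over parental in mutant 1 (x axis) and in mutant 2 (y axis) for the 14486 genes tested, LIN28A left out. Coloured points are genes of the 442 called the same way in both clones, again without LIN28A, and the 14 called in opposite ways. ALPPL2 and NPNT lie far up in both clones, NT5E and TNC far down, and S100A9 lies in a quadrant of opposite sign.

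NT5E and TNC were among the genes that fell most in both clones. The genes that rose or fell most were chosen among those without overlap in either clone, so that absence of overlap follows from the choice. Of the 442 genes called the same way in both clones, 430 had no overlap in either clone. Absence of overlap therefore adds little to the call of any such gene, here and below. NT5E, the ectonucleotidase CD73 that makes adenosine from AMP, stood at 187, 176, 155 and 130 CPM in parental mutant 1 and at 45.2, 49.6, 48.6 and 35.8 CPM in its LIN28A-OE line. In mutant 2 NT5E stood at 433, 398, 373 and 397 CPM in the parental and at 115, 122, 116 and 102 CPM in the LIN28A-OE libraries. The groups were far apart in both clones, and the fall was 3.61-fold in mutant 1 (log2 -1.85, SE 0.12, adjusted p = 3.08e-08) and 3.54-fold in mutant 2 (log2 -1.83, SE 0.12, adjusted p = 2.27e-08). TNC, the matrix glycoprotein tenascin C, went from 102, 111, 83.1 and 111 CPM to 36.4, 46.9, 24 and 21.7 CPM in mutant 1. In mutant 2 TNC went from 227, 202, 232 and 220 CPM to 41.1, 37.1, 37.8 and 25.2 CPM, without overlap in either clone. TNC fell 3.14-fold in mutant 1 and 6.25-fold in mutant 2 (adjusted p = 5.5e-05 and 1.62e-07).

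KRT15, LAMB3 and COL17A1 also fell in both clones. KRT15, a keratin of basal epithelial cells, stood at 6.58, 5.23, 5.02 and 6.33 CPM in parental mutant 1 against 1.87, 1.57, 1.34 and 1.26 CPM with LIN28A, and at 6.35, 5.29, 6.11 and 7.78 CPM in parental mutant 2 against 2.05, 1.55, 1.04 and 1.4 CPM. LAMB3, which encodes the beta chain of laminin-332, stood at 633, 642, 690 and 741 CPM in parental mutant 1 against 363, 387, 251 and 276 CPM, and at 549, 481, 530 and 720 CPM in parental mutant 2 against 260, 325, 230 and 196 CPM. Neither gene overlapped between the arms of either clone. On the log2 scale KRT15 fell by 1.92 and by 2.05, and LAMB3 fell by 1.08 and by 1.18, in mutants 1 and 2. COL17A1, a transmembrane collagen of hemidesmosomes, fell by 2.19 and by 2.08 on that scale. The adjusted p-values of KRT15, LAMB3 and COL17A1 ran up to 0.000308 in mutant 1 and up to 2.59e-05 in mutant 2, and each stayed called in both clones when any 1 library was left out.

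Other genes of the 12 that fell most had log2 fold changes in mutant 1 and mutant 2 of -1.96 and -2.75 for ROBO4, a receptor for Slit proteins, -2.28 and -2.26 for IVL, involucrin of the cornified envelope, -2.17 and -1.61 for G0S2, an inhibitor of triglyceride lipase, and -1.44 and -2.14 for COL13A1, a transmembrane collagen. KIAA1755 had -2.23 and -2.0. FGF1, a fibroblast growth factor, EVI2B, a membrane protein, and the RNA APCDD1L-AS1 fell in both clones to under 0.3 CPM in LIN28A-OE mutant 2, with -1.54 and -4.14, -1.43 and -3.65, and -1.0 and -2.85. The mutant 1 calls of IVL and APCDD1L-AS1 were each lost in 4 and that of FGF1 in 12 of the 16 fits that left out 1 library, with adjusted p-values up to 0.0235 (IVL) and 0.0313 (FGF1) without replicate 3 of LIN28A-OE mutant 1 and up to 0.0159 (APCDD1L-AS1) without replicate 4 of that line.

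Among the genes named, ALPPL2 and ALPP had the largest mean rise over the clones after LIN28A itself. ALPPL2, a germ-cell alkaline phosphatase, stood at 0.188, 0.38, 0.183 and 0.309 CPM in parental mutant 1 against 3.73, 4.4, 9.35 and 11.7 CPM with LIN28A. In mutant 2 ALPPL2 stood at 0.504, 0.23, 0.679 and 0.192 CPM in the parental against 20, 31.3, 30.6 and 56.1 CPM in the LIN28A-OE libraries. The arms were far apart in both clones, at log2 4.77 (SE 0.60, adjusted p = 9.41e-05) and 6.30 (SE 0.49, adjusted p = 1.75e-07). ALPP, the placental form, had 2.91 and 4.42, but its sequence is nearly identical to that of ALPPL2 and reads may have been divided between them, so the share of each gene is uncertain.

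NPNT, the matrix protein nephronectin, stood at 2.44, 2.66, 3.74 and 2.93 CPM in parental mutant 1 and at 7.9, 11, 14.4 and 14.6 CPM in its LIN28A-OE line. In mutant 2 NPNT stood at 6.85, 12.6, 7.92 and 2.98 CPM against 31.8, 49.5, 43.4 and 62.7 CPM. NPNT thus rose 4.07-fold in mutant 1 and 6.15-fold in mutant 2 (adjusted p = 0.00129 and 6.91e-06), with no overlap. MMP28, a matrix metalloproteinase, rose by 1.95 and 2.84 on the log2 scale, COL14A1, a fibril-associated collagen, by 2.11 and 2.47, VTN, vitronectin, by 1.45 and 2.88, and LCN2, the iron carrier lipocalin 2, by 2.60 and 1.73 in mutants 1 and 2. FRMD3 rose by 1.48 and 3.48, GYG2, which primes glycogen synthesis, by 1.62 and 3.27, and NYAP1, an adaptor of phosphoinositide 3-kinase, by 1.69 and 2.16. GYG2 stood at no more than 0.115 CPM in parental mutant 2, and its call was lost in 13 of the 16 fits without 1 library in mutant 1 (adjusted p up to 0.0347, without replicate 3 of LIN28A-OE mutant 1) and in 4 in mutant 2 (up to 0.0191, without replicate 3 of parental mutant 2). The mutant 1 calls of LCN2 and FRMD3 were each lost in 4 such fits, with adjusted p-values up to 0.0162 without replicate 4 of parental mutant 1 and up to 0.0165 without replicate 4 of LIN28A-OE mutant 1, and those of VTN and NYAP1 in 1 each, at 0.012 without replicate 4 and 0.0116 without replicate 2 of parental mutant 1.

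**Figure D3:**
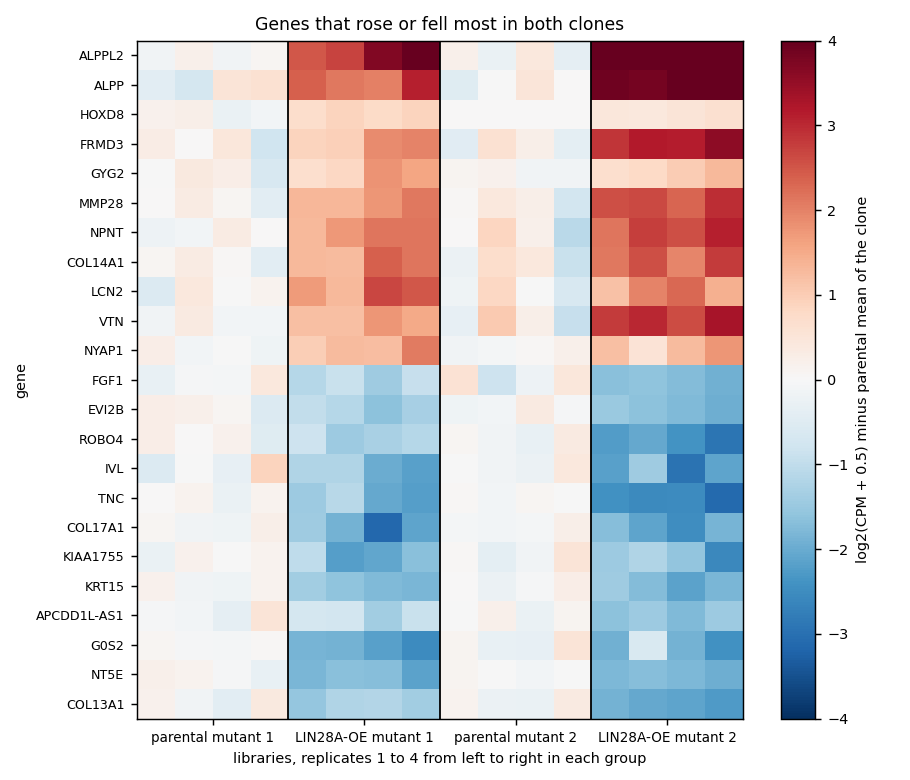
Log2 CPM of the genes that rose or fell most in both clones, LIN28A left out (rows), in each of the 16 libraries (columns), relative to the mean of the parental libraries of the same clone; colour runs from -4 to 4 on the log2 scale and saturates beyond. The rows were chosen among genes without overlap in either clone, so the 4 LIN28A-OE libraries of each clone share a sign by that choice. The colour is deepest for ALPPL2 and ALPP.

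The list of epithelial junction and identity genes moved in both directions. Over all genes 2.74% rose and 2.38% fell in mutant 1, and 14.5% rose and 14.9% fell in mutant 2. Of 31 members of this list tested, 5 rose (16.1%) and 4 fell (12.9%) in mutant 1, and 13 rose (41.9%) and 6 fell (19.4%) in mutant 2, with 4 up and 4 down in both, and the median log2 fold change was -0.14 and 0.43 against 0.01 and 0.03 over all genes. CDH1, which encodes E-cadherin of adherens junctions, stood at 46.5, 35.8, 50.9 and 41.5 CPM in parental mutant 1 and at 103, 110, 88.1 and 95.6 CPM in its LIN28A-OE line. In mutant 2 CDH1 stood at 64.6, 66.8, 78.7 and 41.4 CPM against 162, 141, 126 and 156 CPM. It rose without overlap, 2.28-fold in mutant 1 and 2.31-fold in mutant 2 (adjusted p = 0.000141 and 1.96e-05). The members that fell in both clones included KRT15, LAMB3 and KRT19, the last of which was named after its values were seen.

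Among 27 mesenchymal and epithelial-mesenchymal transition genes, 5 rose (18.5%, against 2.74% of all genes) and 2 fell (7.41%, against 2.38%) in mutant 1, and 4 rose (14.8%, against 14.5%) and 7 fell (25.9%, against 14.9%) in mutant 2, with medians of 0.08 and -0.11. The median in mutant 1 was -0.03 with all 24 libraries in 1 fit. VIM, the intermediate filament vimentin, was lower in both clones, by 1.62-fold in mutant 1 and 2.57-fold in mutant 2 (adjusted p = 0.00571 and 4.14e-06), and it joined TNC as the second member that fell in both. The VIM call in mutant 1 was lost in 4 of the 16 fits without 1 library, with an adjusted p up to 0.0278 without replicate 4 of LIN28A-OE mutant 1. Of the fibroblast markers, named after their values were seen, COL3A1 had log2 fold changes of 3.89 in mutant 1 (called) and -0.77 in mutant 2 (not called). The other 2 tested, COL1A1 and PDGFRB, were higher in both clones. Of the 3 tested, 2 rose in mutant 1 (66.7%, against 2.74% of all genes) and 1 in mutant 2 (33.3%, against 14.5%). The summed level of the 3 was 7.89 to 10.9 CPM in parental mutant 1 and 16.3 to 23.4 CPM in its LIN28A-OE line. In mutant 2 it was 5.54 to 8.28 CPM and 11.1 to 20.2 CPM, without overlap in either clone.

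Of the let-7 targets, 4 rose in both clones. Of 35 targets, 32 were tested; 6 rose and none fell in mutant 1 (edgeR, with 2.74% of all genes up and 2.38% down; 4 were lower at an unadjusted p under 0.05, and DESeq2 called 1 downward), whereas 7 rose and 7 fell in mutant 2 (14.5% and 14.9% of all genes). Their median log2 fold change was 0.08 in mutant 1 and -0.08 in mutant 2, against 0.01 and 0.03 over all genes. The 4 targets called upward in both clones, 12.5% of those tested against 1.6% of all genes, were DICER1, E2F5, PRTG and IGF1R. Over the 16 fits that left out 1 library this number ran from 1 to 5, and it was 2 without the low-MALAT1 parental libraries. Of the 4, PRTG and IGF1R were among the genes found with a CTACCTCA site in the 3′UTR, and DICER1 and E2F5 were not. Members of the target list were not required to hold this site.

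DICER1, the RNase that cuts miRNA precursors, stood at 107, 83.1, 93 and 67.6 CPM in parental mutant 1 and at 146, 174, 148 and 139 CPM with LIN28A. In mutant 2 DICER1 stood at 110, 127, 124 and 92.8 CPM against 174, 186, 180 and 169 CPM. It rose 1.73-fold and 1.55-fold without overlap (adjusted p = 0.000773 and 0.00084). IGF1R, the receptor for insulin-like growth factors, stood at 103, 98.1, 110 and 83.7 CPM in parental mutant 1 against 117, 127, 154 and 150 CPM, and at 197, 221, 221 and 176 CPM in parental mutant 2 against 354, 349, 338 and 325 CPM. PRTG, a developmental adhesion protein, stood at 18.1, 14.9, 16.6 and 12.8 CPM in parental mutant 1 against 22.8, 22.2, 31.8 and 24.5 CPM, and at 25.3, 22, 24.2 and 15.5 CPM in parental mutant 2 against 35.7, 33.2, 41.2 and 40.4 CPM. The arms of IGF1R and PRTG did not overlap in either clone, but the changes were small, at log2 0.48 and 0.73 for IGF1R and 0.69 and 0.78 for PRTG. E2F5, a transcription factor of the cell cycle, rose by 0.81 and 0.89. The calls of IGF1R, PRTG and E2F5 in mutant 1 lay close to the threshold (adjusted p = 0.00916, 0.00844 and 0.00843) and were lost in 13, 10 and 9 of the 16 fits without 1 library, with adjusted p-values up to 0.038 and 0.0362 for IGF1R and E2F5 without replicate 4, and 0.0349 for PRTG without replicate 3, of LIN28A-OE mutant 1.

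HMGA2, a chromatin protein and classical let-7 target with a site close to its stop codon, went the other way. It stood at 1.6, 2, 1.55 and 1.54 CPM in parental mutant 1 and at 0.871, 0.747, 1.34 and 0.399 CPM in its LIN28A-OE line, a log2 fold change of -0.97 that missed the threshold (SE 0.32, adjusted p = 0.0473). In mutant 2 HMGA2 went from 7.26, 7.82, 6.49 and 11.2 CPM to 1.81, 2.24, 2.21 and 1.22 CPM, a 4.31-fold fall (adjusted p = 4.63e-06). All LIN28A-OE libraries were below all parental libraries in both clones. HMGA1, its close relative, had log2 fold changes of -0.59 (adjusted p = 0.0204) and -1.03 (adjusted p = 0.000103).

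IGF2BP1, an oncofetal RNA-binding protein, differed between the clones. It stood at 8.65, 8.27, 10.4 and 10.8 CPM in parental mutant 1 and at 17.7, 18.8, 18.8 and 21.1 CPM with LIN28A, whereas in mutant 2 it stood at 24, 25.3, 27.2 and 23.8 CPM and at 30.3, 27, 28.7 and 25.1 CPM. It rose 2.02-fold in mutant 1 (adjusted p = 2.34e-05) and was 1.1-fold higher in mutant 2 (adjusted p = 0.292), and the effect in mutant 2 was lower by 0.88 on the log2 scale (test of the difference, adjusted p = 0.00285). The remaining targets called in 1 clone were CDK6, which rose in mutant 1, ARID3A, INSR and IRS2, which rose in mutant 2, and IGF2BP2, PLAGL1, CDC25A, RRM2 and AURKB, which fell in mutant 2. The calls of CDK6, ARID3A, IGF2BP2 and PLAGL1 were lost in 10, 7, 4 and 9 of the 16 fits without 1 library, with adjusted p-values up to 0.0249, 0.0318, 0.0267 and 0.0285, without replicate 4 of parental mutant 1 for CDK6, replicate 1 of parental mutant 2 for ARID3A and replicate 2 of LIN28A-OE mutant 2 for IGF2BP2 and PLAGL1.

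Over all genes, those with 1 or more CTACCTCA sites in the 3′UTR numbered 540 among the genes tested; 17 of them rose (3.15%) and 2 fell (0.37%) in both clones, and their median log2 fold change was 0.10 in each clone. Among the 11825 genes without a site, 200 rose (1.69%) and 186 fell (1.57%) in both clones, and the medians were 0.01 and 0.02. Genes with sites had longer transcripts, with a median of 5605 bases against 3342 bases. Within the quartile of longest transcripts, 14 of 301 genes with sites rose in both clones (4.65%) and 107 of 2969 without a site did so (3.6%), with medians of 0.20 against 0.17 in mutant 1 and 0.17 against 0.20 in mutant 2. In that quartile 0 of 301 and 33 of 2969 (1.11%) fell in both clones. In the quartile below it, 2 of 137 with sites (1.46%) and 30 of 3110 without (0.965%) fell. The differences between these shares were not tested. CDH1 and ROBO4, which moved in opposite directions, each have 1 such site.

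In the matched small RNA libraries, 19 mature let-7 and miR-98 forms were tested among 710 miRNAs. Of these, 8 were called in mutant 1 and 5 in mutant 2 (edgeR, adjusted p under 0.01, with 2.54% and 5.49% of all miRNAs called), and every one of these calls was a fall. Among the 5p forms, which hold the seed and of which 9 were tested, 3 were called in mutant 1 and 1 in mutant 2. The other calls were of 3p forms. miR-98-5p stood at 1097, 1104, 1045 and 1301 CPM in parental mutant 1 against 252, 161, 319 and 384 CPM with LIN28A, and at 648, 641, 632 and 664 CPM in parental mutant 2 against 110, 113, 147 and 119 CPM, a fall of 4.08-fold and 5.28-fold. let-7a-5p, which has the same seed, did not pass the test, with log2 fold changes of 0.02 in mutant 1 and 0.20 in mutant 2. let-7i-5p had -1.62 in mutant 1 (called) and -0.83 in mutant 2 (not called), and let-7f-5p had -1.26 and -1.02, called in neither. Replicate 2 of the LIN28A-OE mutant 1 small RNA libraries stood apart from its group. Without it 12 forms were called in each clone, all lower but let-7a-3p in mutant 2 (0.43), among them let-7f-5p with -0.97 and -1.03 and let-7i-5p with -1.34 and -0.84, while let-7a-5p was called in neither.

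Of the 19 miRNA-processing and effector genes, DICER1 and TNRC6B, a partner of Argonaute in silencing, rose in both clones, TNRC6B by 0.67 and 0.52 on the log2 scale. The TNRC6B call was lost in 1 fit without 1 library in mutant 1 (adjusted p = 0.0111, without replicate 2 of the parental line) and in 2 in mutant 2 (up to 0.0204, without replicate 4 of LIN28A-OE mutant 2). AGO4 and ADARB1 rose and RAN fell in mutant 2 without a call in mutant 1. Of the 19, 2 rose in mutant 1 (10.5%, against 2.74% of all genes). In mutant 2, 4 rose (21.1%, against 14.5%) and 1 fell (5.26%, against 14.9%). Of 32 terminal nucleotidyltransferase and tail-decay genes, LSM1 fell in mutant 1 (3.12%, against 2.38% of all genes) and LSM2, LSM3, LSM5, LSM7, EXOSC10 and PATL1 fell in mutant 2 (18.8%, against 14.9%). Of 10 let-7 and miRNA host genes, 1 was called downward in mutant 1 (10%, against 2.38% of all genes). In mutant 2, 1 was called upward (10%, against 14.5%) and 3 downward (30%, against 14.9%). The 6 pluripotency factors that passed the filter gave no call in either clone by edgeR or DESeq2, with none in mutant 1 and 1 higher and 1 lower in mutant 2 at an unadjusted p under 0.05 by edgeR.

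The 25 insulin and IGF signalling genes had medians of 0.23 in mutant 1 and 0.48 in mutant 2. In mutant 1, 3 rose (12%, against 2.74% of all genes) and 1 fell (4%, against 2.38%), and in mutant 2, 10 rose (40%, against 14.5%) and 3 fell (12%, against 14.9%), with IGF1R called in both. INSR, the insulin receptor, stood at 14, 16.2, 12.7 and 12.1 CPM in parental mutant 2 and at 31.2, 31.7, 30.3 and 33.9 CPM with LIN28A, a 2.3-fold rise (adjusted p = 7.69e-06). In mutant 1 the INSR groups overlapped, at 19.8, 18.2, 19.6 and 14.2 CPM and 18.7, 23.4, 28.9 and 26.6 CPM, and the log2 fold change was 0.44 (adjusted p = 0.043). IRS1 and IRS2, the adaptors of both receptors, were called in mutant 2 in opposite directions, with -0.62 and 1.04. The IRS2 call was lost in 3 fits without 1 library, with an adjusted p up to 0.0302 without replicate 4 of parental mutant 2.

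Genes of oxidative phosphorylation were lower on average in both clones, but libraries overlapped in mutant 1. As the list median relative to the parental mean, on a log2 scale, parental mutant 1 stood at -0.13, 0.09, -0.12 and 0.20. Its LIN28A-OE libraries stood at -0.11, -0.28, -0.50 and -0.27. In mutant 2 the ranges were -0.11 to 0.20 and -0.45 to -0.33, without overlap. The highest parental value of each clone was that of its low-MALAT1 replicate 4. All 42 members had negative log2 fold changes in both clones, as had 5053 of the 14486 genes tested, with medians of -0.29 in mutant 1 and -0.39 in mutant 2. Of the 42, 5 were called in mutant 1 (11.9%, against 2.38% of all genes downward) and 23 in mutant 2 (54.8%, against 14.9%), all downward, and the 5 (COX8A, COX6A1, COX6C, ATP5B and, named after its values were seen, NDUFV2) were called in both. COX8A, a subunit of cytochrome c oxidase, stood at 176, 251, 210 and 284 CPM in parental mutant 1 against 172, 153, 106 and 137 CPM with LIN28A, and at 187, 154, 167 and 214 CPM in parental mutant 2 against 119, 85.9, 92.3 and 86.2 CPM. The groups did not overlap in either clone, although the mutant 1 groups came close, and COX8A fell 1.61-fold and 1.89-fold (adjusted p = 0.00827 and 0.000247). COX6A1 and COX6C, also of that complex, fell by 0.60 and 0.41 in mutant 1 and by 0.57 and 0.47 in mutant 2 on the log2 scale, and ATP5B, the catalytic beta subunit of ATP synthase, fell by 0.52 and by 0.47. The mutant 1 calls of COX8A, COX6A1, COX6C and ATP5B were lost in 10, 4, 12 and 13 of the 16 fits without 1 library, with adjusted p-values up to 0.0321, 0.0274 and 0.0394 for the first 3 without replicate 2 of parental mutant 1 and 0.0331 for ATP5B without replicate 3 of LIN28A-OE mutant 1. The number called in both clones ran from 0 to 5 over these fits, and with all 24 DU145 libraries in 1 fit 1 member was called in mutant 1 and 10 in mutant 2, at medians of -0.29 and -0.38.

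Glycolysis genes were lower in most cases. Of 25 tested, 4 fell in mutant 1 (16%, against 2.38% of all genes), and 9 fell (36%, against 14.9%) and 2 rose (8%, against 14.5%) in mutant 2, with medians of -0.37 and -0.29. On the same list scale the arms did not overlap in either clone. The low-MALAT1 replicate 4 was again the highest parental library of each clone, at 0.14 and 0.20. LDHA, which makes lactate from pyruvate, stood at 1902, 1996, 1983 and 1828 CPM in parental mutant 1 against 1593, 1355, 1110 and 1367 CPM. In mutant 2 LDHA stood at 647, 707, 682 and 805 CPM against 542, 520, 447 and 483 CPM. It fell 1.42-fold and 1.43-fold without overlap, and the kinases PFKP and HK1 fell by 1.54-fold and 1.42-fold in mutant 1 and by 1.55-fold and 1.35-fold in mutant 2. The mutant 1 calls of LDHA and PFKP were each lost in 6 of the 16 fits without 1 library, with adjusted p-values up to 0.0199 without replicate 2 of parental mutant 1 and up to 0.0265 without replicate 3 of LIN28A-OE mutant 1, and that of HK1 in 1, at 0.0106 without replicate 2 of parental mutant 1.

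Fold changes also moved with transcript length, measured on the GENCODE canonical transcript for 13280 of the tested genes. From the shortest to the longest quartile of genes the median log2 fold change was -0.15, -0.04, 0.06 and 0.17 in mutant 1 and -0.17, -0.02, 0.08 and 0.20 in mutant 2. Without the low-MALAT1 parental libraries it ran from -0.12 to 0.12 in mutant 1 and from -0.13 to 0.15 in mutant 2. The wild-type comparison ran from -0.11 to 0.10. The part of length in the results for the short oxidative phosphorylation mRNAs and for long mRNAs such as DICER1 and IGF1R was not tested.

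Cell-cycle genes fell in mutant 2, and the median of the list was negative in wild type too. Of 44 tested, 26 fell (59.1%, against 14.9% of all genes) and 1 rose (2.27%, against 14.5%) in mutant 2. In mutant 1 the calls were CDK6 and, named after its values were seen, CDKN2B, both upward (4.55%, against 2.74% of all genes). The medians were -0.19 in mutant 1 and -0.84 in mutant 2, and the lowest adjusted p of a member in the test of the difference between clones was 0.0409 (edgeR). As the median over the list relative to the parental mean, on a log2 scale, the 4 LIN28A-OE libraries of mutant 2 stood at -0.59, -0.91, -0.99 and -0.88 and its parental libraries between -0.11 and 0.14. In mutant 1 replicates 1 and 2 with LIN28A stood at 0.21 and 0.04 and replicates 3 and 4 at -0.92 and -0.58, with the parental libraries between -0.13 and 0.26. Of the LIN28A-OE mutant 1 libraries, 2 thus lay within the parental range and 2 below it. In wild type the median log2 fold change of the list was -0.50. There the LIN28A-OE libraries stood at 0.565, -0.91, -1.19 and -0.94, and the parental libraries ranged from -0.69 to 0.50. AURKB, a mitotic kinase, stood at 149, 138, 39.3 and 66.4 CPM with LIN28A in mutant 1 against 124, 131, 106 and 222 CPM in the parental, and at 61.6, 29.3, 31 and 34.9 CPM against 135, 136, 138 and 192 CPM in mutant 2. The number of list members called downward in mutant 2 was 16 without the low-MALAT1 libraries and 2 with all 24 DU145 libraries in 1 fit, where the median was again -0.84.

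Interferon-stimulated genes were lower in mutant 2. Of 42 tested, edgeR called 21 in mutant 2 (50%, against 14.9% of all genes downward) and 3 in mutant 1 (7.14%, against 2.38%), all of them downward, with medians of -0.78 and -0.41. Upward, 1 was at an unadjusted p under 0.05 in mutant 2 and none in mutant 1, and DESeq2 called 1 upward in mutant 2. On the same list scale the LIN28A-OE libraries of mutant 2 stood between -0.79 and -0.63 and its parental libraries between -0.43 and 0.20, without overlap. In mutant 1 the ranges overlapped, at -0.65 to 0.19 with LIN28A and -0.72 to 0.64 in the parental, and the list median was -1.05 in a fit of replicates 1 and 2 alone and 0.28 in a fit of replicates 3 and 4. The 3 genes called in both clones were USP18, IFI35 and ISG20. USP18, the protease that removes ISG15 from proteins, stood at 21.2, 29.1, 19.4 and 22.2 CPM in parental mutant 1 against 14.1, 13.7, 15.5 and 12.7 CPM, and at 34.5, 36.4, 33 and 35.9 CPM in parental mutant 2 against 21.6, 20, 18.9 and 18.9 CPM. It fell 1.63-fold and 1.77-fold without overlap (adjusted p = 0.00101 and 3.8e-05), and IFI35 fell by 0.78 and by 0.69 on the log2 scale.

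Antigen presentation and inflammatory genes fell in part in mutant 2. Of 17 antigen presentation genes, 10 fell in mutant 2 (58.8%, against 14.9% of all genes). In mutant 1, 2 fell (11.8%, against 2.38%) and 1 rose (5.88%, against 2.74%). TAP2, a peptide transporter, fell by 0.59 and by 1.10 on the log2 scale, and PSMB9, a subunit of the immunoproteasome, fell by 0.52 and by 0.79. Both were called in both clones, but neither kept its mutant 1 call without the low-MALAT1 parental libraries. Of 27 inflammatory genes, 10 fell (37%, against 14.9% of all genes) and 2 rose (7.41%, against 14.5%) in mutant 2, and 2 fell (7.41%, against 2.38%) and 1 rose (3.7%, against 2.74%) in mutant 1. CCL5, a chemokine, stood at 6.11, 8.37, 5.39 and 3.4 CPM in parental mutant 1 against 2.3, 1.72, 2.61 and 1.93 CPM, and at 4.13, 4.71, 3.47 and 2.4 CPM in parental mutant 2 against 2.19, 1.96, 1.38 and 1.87 CPM. It fell 2.74-fold in mutant 1 and 1.96-fold in mutant 2 without overlap, and the call in mutant 2 (adjusted p = 0.00678) was lost in 6 of the 16 fits without 1 library, with an adjusted p up to 0.0248 without replicate 3 of LIN28A-OE mutant 2.

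Genes of the integrated stress and unfolded protein responses rose in part. Of 31 tested, 5 were called in mutant 1, all upward (16.1%, against 2.74% of all genes), and 9 rose (29%, against 14.5%) and 2 fell (6.45%, against 14.9%) in mutant 2, with medians of 0.31 and 0.42. As the list median relative to the parental mean, on a log2 scale, LIN28A-OE mutant 1 stood at 0.02, 0.10, 0.56 and 0.40. Its parental libraries ranged from -0.13 to 0.14, so replicates 1 and 2 with LIN28A lay within the parental range. In mutant 2 the LIN28A-OE libraries ranged from 0.23 to 0.45 and the parental from -0.21 to 0.21. SLC7A5, a transporter of large neutral amino acids, stood at 962, 868, 1045 and 1412 CPM in parental mutant 1 against 1668, 1575, 1488 and 1888 CPM, and at 1074, 906, 1184 and 1091 CPM in parental mutant 2 against 2854, 2816, 2765 and 2592 CPM. It rose 1.55-fold and 2.58-fold without overlap. The transcription factor CEBPB rose by 0.71 and 1.4, the lipoprotein receptor VLDLR by 0.90 and 0.69, and PHGDH, the first enzyme of serine synthesis, by 0.73 and 0.60 on the log2 scale. In LIN28A-OE mutant 1 replicates 3 and 4 were the highest for both VLDLR (67.8, 77.7, 141 and 128 CPM) and PHGDH (183, 170, 276 and 300 CPM). The number of members called upward in both clones was 4, and it ran from 0 to 6 over the fits that left out 1 library. The calls were lost in 3 such fits for SLC7A5, 3 for CEBPB, 5 for VLDLR and 5 for PHGDH in mutant 1, and in 6 for VLDLR and 5 for PHGDH in mutant 2, with adjusted p-values up to 0.0271, that of CEBPB without replicate 2 of parental mutant 1. The 30 cholesterol and fatty acid genes tested had medians of 0.03 and 0.12.

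Signalling and patterning lists gave at most 1 shared call in each direction. Over all genes 1.6% rose and 1.45% fell in both clones. Of the EGFR family list 7.14% fell in both. Of the TGF-beta, BMP, Wnt and Notch list 3.03% went each way in both, and of the HOX list 3.7%. TGFA, a ligand of the EGF receptor, fell by 1.03 and by 0.86 on the log2 scale and was the 1 member of 14 EGFR family genes called in both clones. Among 33 TGF-beta, BMP, Wnt and Notch components, the receptor NOTCH3 rose by 0.73 and 1.31 and the secreted DKK3 fell by 0.73 and by 1.32. Of 27 HOX genes, HOXB2 fell by 1.06 and by 1.15, and HOXD8 rose in mutant 1 by 0.96. In mutant 2 HOXD8 had no read in any parental library and at most 0.281 CPM with LIN28A, so that no fold is given. The mutant 1 calls of DKK3, NOTCH3, HOXB2 and HOXD8 were lost in 10, 5, 10 and 8 of the 16 fits without 1 library, with adjusted p-values up to 0.0332, 0.0258 and 0.0345 for the first 3 without replicate 4 of LIN28A-OE mutant 1 and 0.0248 for HOXD8 without replicate 3 of parental mutant 1. The 77 cytoplasmic ribosomal protein genes had medians of 0.02 and 0.18. In mutant 2, 6 were up (7.79%, against 14.5% of all genes) and 1 was down (1.3%, against 14.9%). There was no edgeR call in mutant 1, where 1 was higher and 3 were lower at an unadjusted p under 0.05 and DESeq2 called 1. The remaining lists (p53 targets, hypoxia, ERK feedback, YAP targets, cancer-testis genes, ABC transporters and the BCL2 family) had no member called the same way in both clones by edgeR. These lists held 4 to 25 tested genes, so at the shares over all genes the absence of calls is not read as a result. DESeq2 called 2 of the 25 p53 targets downward and 1 upward, and 1 of the 18 hypoxia genes each way, in both.

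**Figure D4:**
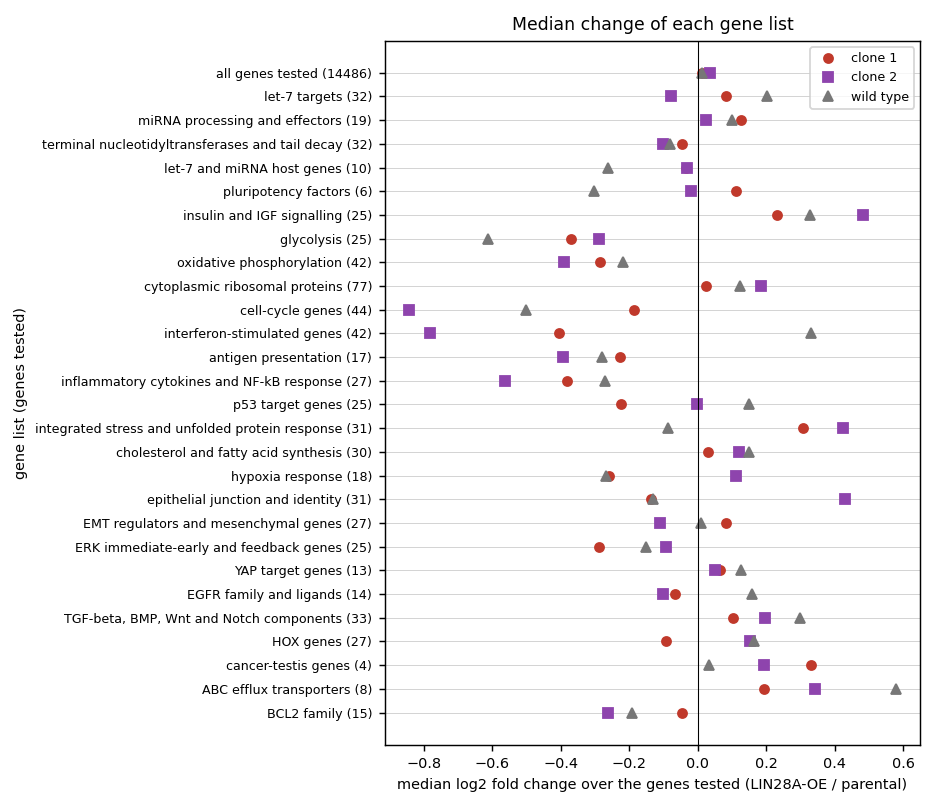
Median log2 fold change of each gene list (rows) in mutant 1, mutant 2 and wild type (points; x axis on the log2 scale). Interferon-stimulated genes lie at -0.41 and -0.78 in the mutants and at 0.33 in wild type, oxidative phosphorylation genes are negative in all 3 lines, and the let-7 targets lie near 0 in the mutants.

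Of the genes named for opposite directions in the 2 clones, KIAA1644 and GACAT2 also started from levels that did not overlap. KIAA1644 stood at 105, 101, 107 and 125 CPM in parental mutant 1 against 42.7, 40.5, 29.8 and 27.3 CPM with LIN28A, and at 26.1, 34.6, 32.1 and 33.7 CPM in parental mutant 2 against 39.3, 52.8, 51.2 and 55.1 CPM. The levels of the 2 clones thus drew closer, and the effects differed by 2.27 on the log2 scale (adjusted p = 3.53e-06). GACAT2, a long non-coding RNA, went from 17.4, 15.1, 22.6 and 13.7 CPM to 8.52, 7.09, 6.92 and 5.38 CPM in mutant 1 and from 1.61, 2.07, 2.64 and 1.92 CPM to 5.28, 5, 4.97 and 4.58 CPM in mutant 2. S100A9, a calcium-binding protein of inflammation, had log2 fold changes of -2.06 and 1.09, and ALPK2 and NYAP2 had 1.81 and -1.20, and 1.44 and -1.86. The mutant 2 calls of S100A9, NYAP2, ALPK2 and KIAA1644 were lost in 12, 9, 10 and 2 of the 16 fits without 1 library, and the mutant 1 calls of NYAP2 and S100A9 in 5 and 1, with adjusted p-values up to 0.0337, that of ALPK2 without replicate 1 of parental mutant 2.

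The change from the parental to the LIN28A-OE line, here called the effect, was also compared between the mutants and DU145 wild type. The mean of the clones and 24 libraries were used. The test of the difference called 64 of 14561 genes (0.44%), 25 with a higher and 39 with a lower effect in the mutants, against 1481 genes called in wild type itself (10.2%). TUT4/7 genotype, the LIN28A level and, for the parental lines, passage (up to 160 in wild type) differ together in this comparison and cannot be told apart. Replicate 1 of parental wild type was low in MALAT1 too, at 209 CPM against 610 to 793 CPM in the other 3 libraries of its group. The count was 23 without replicate 2 and 260 without replicate 1 of LIN28A-OE wild type, a library that correlated with its group at 0.957 to 0.969. It also moved by over 1.5 times without replicate 3 or 4 of that line (31 and 37), without replicate 1, 2 or 3 of parental wild type (38, 28 and 26), without replicate 2 or 3 of parental mutant 1 (35 and 38), without replicate 2 or 4 of LIN28A-OE mutant 1 (42 and 41), without replicate 2 or 3 of parental mutant 2 (40 and 37) and without replicate 3 or 4 of LIN28A-OE mutant 2 (32 and 42).

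CCL5 fell in both mutants but not in wild type, where it went from 0.452, 0.208, 0.186 and 0.246 CPM to 2.13, 1.65, 3.47 and 1.95 CPM. The effect in the mutants was lower by 4.26 on the log2 scale (SE 0.45, adjusted p = 6.95e-06). The parental wild-type libraries held few reads of CCL5, so the size of this difference is uncertain. HMGA2 likewise stood at 2.6, 2.81, 3.17 and 2.71 CPM in parental wild type and at 7.32, 5.18, 3.32 and 5.43 CPM with LIN28A, without overlap. Its log2 fold change was 0.91 in wild type (adjusted p = 0.0137), and the effect in the mutants was lower by 2.46 (SE 0.33, adjusted p = 0.000226). IGF2BP3, an oncofetal relative of IGF2BP1, had 0.22 and 0.16 in the mutants and 1.19 in wild type, a difference of -0.99 (adjusted p = 0.00766) whose call was lost in 18 of 24 fits without 1 library (up to 0.0289, without replicate 3 of parental wild type).

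SCN9A, a voltage-gated sodium channel, was the gene with the largest positive difference among those named. It rose from 1.6, 1.24, 1.28 and 0.926 CPM to 6.16, 7.17, 8.14 and 7.05 CPM in mutant 1 and from 6.35, 6.09, 5.43 and 2.3 CPM to 7.95, 13.2, 12.5 and 11.2 CPM in mutant 2. In wild type it went from 3.95, 11.8, 8.67 and 5.3 CPM to 1.38, 2.01, 3.93 and 3.59 CPM, and the difference was 3.3 (SE 0.41, adjusted p = 8.95e-05). PCOLCE2, an enhancer of procollagen processing, went from 21.6, 21.1, 21.1 and 28.2 CPM to 13.1, 13.7, 11.8 and 12.8 CPM in mutant 1 and from 22.6, 23.2, 18.9 and 23.5 CPM to 13.1, 12.7, 13.5 and 12.4 CPM in mutant 2. In wild type PCOLCE2 went from 11.3, 8.42, 8.02 and 12.8 CPM to 16.1, 21.7, 25.4 and 17.4 CPM, a difference of -1.80 (adjusted p = 6.95e-06). Both genes moved without overlap in all 3 lines and in opposite directions in the mutants and in wild type. The calls of CCL5, HMGA2, SCN9A, PCOLCE2 and EFR3B in this test were kept in all 24 fits without 1 library.

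EFR3B, an anchor of a lipid kinase complex, had a difference of -1.86, CYP24A1, the vitamin D 24-hydroxylase, -1.60, and CPM, here the gene of carboxypeptidase M, -1.17. SLC7A5 stood at 907, 1411, 1395 and 868 CPM in parental wild type and at 1063, 1243, 924 and 1212 CPM with LIN28A, so the groups overlapped, and its difference was 1.05. TMEM170B had a difference of 1.53. ISG20 went from 20.2, 22.8, 17.1 and 16.7 CPM to 11, 9.56, 13.1 and 10.6 CPM in mutant 1, from 32.4, 29.3, 21 and 27.7 CPM to 15.9, 19.4, 19.9 and 19.6 CPM in mutant 2, and from 18.4, 14.1, 10.3 and 17.4 CPM to 14.1, 21, 23.8 and 24.8 CPM in wild type, a difference of -1.15. The calls of ISG20, SLC7A5, TMEM170B and CYP24A1 were lost in 18, 12, 7 and 3 of 24 fits without 1 library, in each case with the highest adjusted p, 0.0281, 0.0281, 0.0242 and 0.0121, without replicate 3 of parental wild type. The interferon-stimulated list had a median of 0.33 in wild type, and 3 of its members, ISG20 and, named after their values were seen, OASL and IFIT2, were called in the test of the difference.

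**Figure D5:**
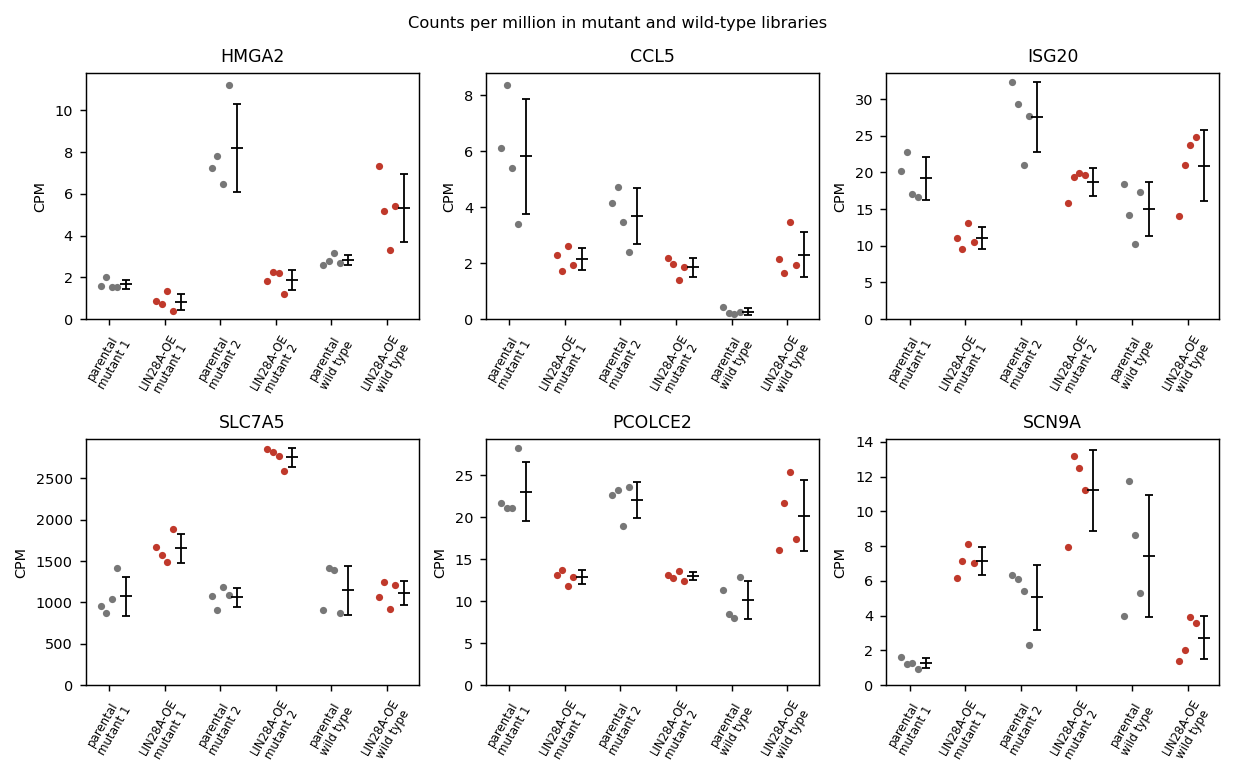
Levels of HMGA2, CCL5, ISG20, SLC7A5, PCOLCE2 and SCN9A (CPM, y axis) in parental and LIN28A-OE libraries of mutant 1, mutant 2 and wild type (x axis); points are libraries and bars are means ± SD (n = 4). HMGA2 and CCL5 are lower with LIN28A in both mutants and higher in wild type, and SCN9A shows the reverse.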

How the data were processed

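Poly(A) RNA libraries (NEBNext Ultra II Directional) of 4 replicates per group were sequenced. Per the labels and methods, the authors trimmed reads with Trimmomatic (0.39), removed rRNA with sortmeRNA, mapped to hg38 with HISAT2 (2.1.0) and deposited HTSeq gene counts. The annotation and strand setting are not given in the sources used here, so overlapping and antisense genes cannot be told apart. Summary lines of the count files, 21.9% to 26.9% of counts in the 16 mutant libraries, were left out. Counts of the matched small RNA libraries (miRDeep2) came from 1 deposited table, of which 56 columns of other samples were not used.

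Counts were TMM-scaled and tested in R 4.3.3 with edgeR 4.0.16 (filterByExpr, robust glmQLFit and glmQLFTest, group means without covariates, Benjamini-Hochberg over all genes tested, threshold 0.01 as the authors used). The 16 mutant libraries formed 1 fit, and the test against wild type used 24. DESeq2 1.42.0, RLE scaling, no filter, other library sets, a replicate block and leaving out each library were alternatives, and the pipeline was tested on simulated data. No pair of replicates agreed within sampling noise.

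The members, 27 gene lists and 5 marker lists were chosen with earlier results of these data known. Named were LIN28A, LIN28B, TUT4 and TUT7, the 12 genes each way with the largest mean change among genes called in both clones, without overlap and at 1 CPM or more, up to 4 members per list called in both clones (all counted members of the let-7, processing and tailing lists), the 6 genes with the largest clone difference of opposite sign, and up to 6 each way with the largest difference from wild type. Some genes that these rules give are not reported here. Other names were chosen after their values were seen, as stated. Intervals cover counting error only.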

Additional observations from a re-analysis of the deposited data

Results flagged for a closer look

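In groups of 4 libraries, 8 of 128 groups of values held a library whose gap to its nearest neighbour, as a share of the group's range, passed Dixon's 95% critical value. Chance flags about 5% of groups. Replicate 4 of parental mutant 1 had the lowest total count of its group (gap share 0.896) and the highest PCOLCE2 (0.925), and replicate 4 of parental mutant 2 had the lowest ZCCHC6, the older symbol of TUT7 (0.876), and the highest AURKB (0.946). These are the parental mutant libraries with the lowest MALAT1. HMGA2 was highest in replicate 2 of parental mutant 1 (0.879), ISG20 was lowest in replicate 1 of LIN28A-OE mutant 2 (0.886), AURKB was highest in replicate 1 of LIN28A-OE wild type (0.937), and the 5 LIN28A reads of parental wild type were all in replicate 3 (1).

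The change from the parental to the LIN28A-OE line differed between the clones for 7 of the genes named by rule (edgeR's test of the difference, adjusted p under 0.01). This effect is given on the log2 scale as mutant 2 minus mutant 1. Genes named after their values were seen, such as NDRG1, are not counted here. The effect was higher in mutant 2 for S100A9 (3.15), GACAT2 (2.55), KIAA1644 (2.27) and the carboxypeptidase M gene CPM (1.38), and lower for NYAP2 (-3.3), ALPK2 (-3.01) and IGF2BP1 (-0.88).

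The mean effect in the mutants differed from that in wild type by the same kind of test for 11 of the genes named by rule, OASL and IFIT2 therefore not counted. It was higher in the mutants for SCN9A (3.3), TMEM170B (1.53) and SLC7A5 (1.05). It was lower in the mutants for CCL5 (-4.26), HMGA2 (-2.46), EFR3B (-1.86), PCOLCE2 (-1.8), CYP24A1 (-1.6), CPM (-1.17), ISG20 (-1.15) and IGF2BP3 (-0.99).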

How the results depend on the processing

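LIN28A kept its direction and call in both clones under every alternative run, at log2 10.99 to 11.68 in mutant 1 and 10.28 to 11.16 in mutant 2 without 1 library, and no called effect of a named gene changed sign. Some list medians did, among them that of the interferon-stimulated genes in mutant 1 (0.28 with replicates 3 and 4 alone, against -0.41) and that of the mesenchymal genes in mutant 1 (-0.03 with 24 libraries, against 0.08). Counts of called genes depended on the setting, in the order mutant 1, mutant 2, both clones the same way and difference from wild type, which were 742, 4252, 442 and 64. At an adjusted p under 0.05 they were 2314, 6554, 1543 and 265, and with a 2-fold minimum 239, 1217, 102 and 40. DESeq2 gave 1444 for mutant 1, 882 for both and 220 against wild type, and 8 let-7 forms in mutant 2. With all 24 libraries in 1 fit the shared count was 245. The mutant 2 count of 2098 up and 2154 down was 1659 and 1248 in that fit, and 1681 and 2391 without a filter on low counts. The clone difference, 1.76% of genes tested, was 5.71% at an adjusted p under 0.05, 1.10% with a 2-fold minimum (107 up, 52 down), 1.08% with 24 libraries in 1 fit (110 up, 47 down), 4.29% by DESeq2 (621 genes) and 0.00688% (1 gene) with replicates 3 and 4 alone. Mutant 1 alone (8 libraries) gave 271, and mutant 1 alone against wild type gave 122. Replicates 1 and 2 alone gave 178, 1921 and 87 for the first 3, and replicates 3 and 4 alone 108, 1367 and 69. In both pairs edgeR called 0 genes for the difference from wild type, with 890 and 1830 at an unadjusted p under 0.05. Leaving out 1 library gave 280 to 989, 3042 to 4752, 173 to 608 and 23 to 260, 1.01% to 3.11% for the clone difference, and 5 to 12 let-7 forms in mutant 1 and 4 to 12 in mutant 2. Without a filter on low counts the clone difference was 136 up and 131 down, against 171 and 84 (edgeR). The cause of these changes was not tested. Same-numbered libraries of the arms did not deviate together (correlations from -0.25 to 0.26), so the numbers were not taken to pair them, although mutant 2 shares clone digits by number, and a replicate block gave 885, 4615, 552 and 78, 2.17% for the clone difference, and 5 let-7 forms in mutant 1. Leaving out the low-MALAT1 parental libraries, chosen after seeing the data, gave 736, 3725, 393 and 75, and 28 calls of named genes were lost. In mutant 1 these were APCDD1L-AS1, ATP5B, CDK6, COX8A, DKK3, E2F5, FGF1, FRMD3, GYG2, HOXB2, HOXD8, IGF1R, IVL, LCN2, PSMB9, TAP2 and VLDLR. In mutant 2 they were ARID3A, ATP5B, GYG2, IGF2BP2, IRS2, PHGDH, RRM2, S100A9 and VLDLR, and against wild type ISG20 and TMEM170B. For the single genes named, 382 of the calls repeated without 1 library were lost and 9 gained. LIN28B and TRIM71 passed no filter on low counts and had no effect to compare. At 7195437 to 19402406 counts, HOXD8, without a read in parental mutant 2, gave no usable fold there. Folds of genes with few reads in 1 arm are of uncertain size. These include GYG2 in parental mutant 2 (at most 0.115 CPM), FGF1 and EVI2B in LIN28A-OE mutant 2 (at most 0.115 and 0.19 CPM) and CCL5 in parental wild type (at most 0.452 CPM).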

Other observations

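MUC16, the CA125 mucin, stood at 28.5, 49.9, 41 and 15 CPM in parental mutant 2 and at 160, 116, 128 and 133 CPM in its LIN28A-OE line, an edgeR log2 fold change of 1.99 (SE 0.25, adjusted p = 1.68e-05) without overlap. In mutant 1 MUC16 stood at 3.01, 2.09, 3.2 and 2.16 CPM against 3.05, 4.7, 5.1 and 4.59 CPM, and its log2 fold change of 0.72 missed the threshold (adjusted p = 0.173). In wild type it had 1.47 (adjusted p = 0.00135). EREG, a ligand of the EGF receptor, fell in mutant 1 by 3.22 on the log2 scale (adjusted p = 0.00125), from 6.39, 7.51, 8.76 and 5.4 CPM to 1.37, 0.672, 0.607 and 0.332 CPM. In mutant 2 EREG overlapped between the arms, at 75.7, 63.3, 83.4 and 72.5 CPM and at 47.2, 93.8, 26.6 and 18.2 CPM. NDRG1, a gene of the hypoxia list, fell by 1.33 in mutant 1 and rose by 0.93 in mutant 2 (test of the difference, adjusted p = 1.32e-05), and TNFAIP3, an inhibitor of NF-kB signalling, had -0.56 in mutant 1 and fell by 2.19 in mutant 2. These genes were named after their values were seen.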
